A study of Caenorhabditis elegans with 4 samples.

Results

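The regions described here are the LIN-37 binding peaks on chromosome III of Caenorhabditis elegans, as deposited in a combined peak list of the series. They are every row of that list on chromosome III, 416 of 1932 peaks over 6 chromosomes. The list of ChIP replicate 1 held 468 peaks on chromosome III and that of replicate 2 held 401. The study profiled LIN-37 by ChIP-seq, in which chromatin fixed with formaldehyde is sheared, enriched with an antibody and sequenced. It comprises 2 LIN-37 ChIP libraries and 2 input libraries, all from late embryos of the wild-type hermaphrodite strain N2 at 20 °C. The antibody was an affinity-purified rabbit polyclonal raised against the full-length protein. Whole embryos hold many cell types, so binding in few cells and weak binding in many cannot be told apart. Input libraries were not analysed here, and no background level stands beside the peaks.

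LIN-37 is a subunit of DREAM, a complex in which an E2F-DP pair, a retinoblastoma-like protein and the MuvB core proteins act together on promoters. In C. elegans the complex is known for holding cell cycle genes down in resting cells and germline genes down in somatic tissue. LIN-54, a core protein, and the E2F-DP pair bind DNA in it, and LIN-37 is a core protein beside LIN-54. In the RefSeq gene table of assembly WBcel235, the genes lin-37, lin-9 and lin-52, which all encode MuvB core proteins, lie on chromosome III. The other core genes lin-53 and lin-54 lie on I and IV, and lin-35, dpl-1 and efl-1, for the retinoblastoma-like protein and the E2F-DP pair, lie on I, II and V. The autosomes of this worm have no single centromere. Each has a central part with little recombination between arms that are richer in repeats. Peaks were not assigned to genes or to sequence, because the coordinates are in build WS210 and no genome or annotation of that build was used here.

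Chromosome III carried LIN-37 peaks more densely than the other autosomes as a group. It held 30.2 combined-list peaks per Mb (95% Poisson interval 27.4 to 33.25), against 20.7 (19.6 to 21.8) on chromosomes I, II, IV and V together. The ratio was 1.46 (95% interval 1.31 to 1.63, two-sided exact binomial test, adjusted p = 4.92e-10). This test treats the other autosomes as a single rate and measures counting error alone. It does not measure the spread among them, which ran from 14.6 peaks per Mb on V to 28.0 on I. Against single autosomes, the density on III was 1.31 times that of II (adjusted p = 0.000494, exact binomial test), 1.54 times that of IV (1.65e-08) and 2.07 times that of V (5.28e-21). Among the upper 50% of peaks by score, the ratio to II was 1.24 and no longer passed (adjusted p = 0.0844, exact binomial test). Against chromosome I, with 28.0 peaks per Mb, the ratio was 1.08 and its interval of 0.94 to 1.24 included 1 (exact binomial test, adjusted p = 0.426). Among the autosomes, density fell as length rose: III was the shortest at 13.8 Mb, followed by I at 15.1 Mb. II at 15.3 Mb had 23.0 peaks per Mb, IV at 17.5 Mb had 19.6 and V at 20.8 Mb had 14.6. Chromosome X, at 17.7 Mb, had 5.48. Whether length accounts for the density on III was not tested. The peaks on III covered 817 kb, which was 5.93% of its length, against 3.87% of the length of the other autosomes. Each replicate's own list gave a like order, with 34.0 peaks per Mb on III against 23.0 on the other autosomes in replicate 1, and 29.1 against 19.8 in replicate 2.

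The peaks were denser towards the right end of the chromosome, the end of high coordinates. The last 25% of the length, from position 10329360, held 143 peaks and the first 25%, up to position 3443120, held 75. The right end thus had 65.6% of the peaks lying in either end (95% exact interval 58.9 to 71.9, two-sided exact binomial test against 50%, adjusted p = 1.73e-05). Per Mb these were 41.5 peaks in the right end and 21.8 in the left. The central 50% held 198 peaks, or 28.8 per Mb. Its share of 47.6% (42.7 to 52.5) did not differ detectably from the 50% of length that it makes up (exact binomial test, adjusted p = 0.487).

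Both replicate lists showed the same tilt. In replicate 1 the right end held 161 peaks and the left end 82, and in replicate 2 it held 137 and the left end 68. On the other autosomes as a group, 360 of 760 end peaks (47.4%, 43.8 to 51.0) lay in the right end. The odds ratio of III against them was 2.12 (two-sided Fisher's exact test, adjusted p = 1.10e-05). This test takes the other autosomes as a single share, in which tilts to opposite ends cancel. It does not measure the spread among them. Single autosomes differed among themselves: the right end held 123 peaks and the left end 80 on II, and 101 and 129 on I. Those counts were 75 and 118 on IV, and 61 and 73 on V. Uneven ends were thus not particular to III: II was tilted to the right and IV to the left. The 41.5 peaks per Mb in the right end of III stood above all other chromosome ends of the autosomes, the next being the left end of I with 34.3 and the right end of II with 32.3. These single ends were compared without a test.

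**Figure D1:**
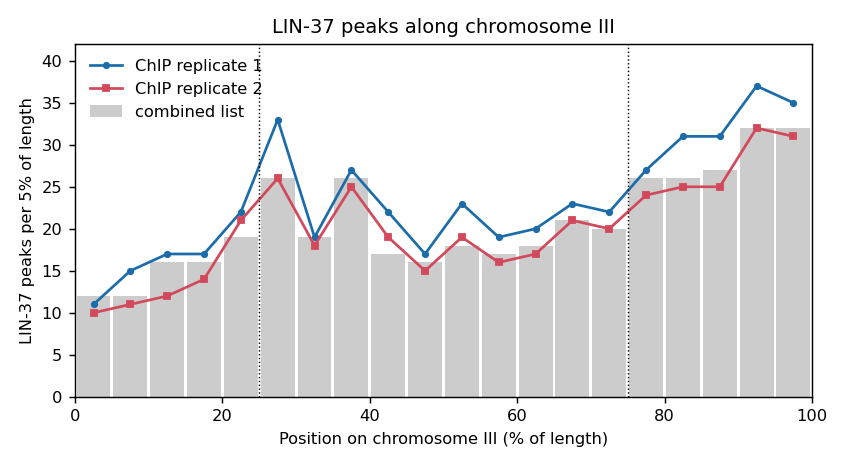
Number of LIN-37 peaks in each 5% of the length of chromosome III (x axis, % of length) in the combined list (grey bars) and in the lists of ChIP replicate 1 (blue line) and replicate 2 (red line). Dotted lines mark 25% and 75% of the length; the combined list has 12 peaks in the first 5% and 32 in the last 5%, and the lines of both replicates follow the bars.

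In steps of 5% of the length, the combined list held 12 peaks in each of the first 2 steps and 32 in each of the last 2. Between 25% and 75% of the length, the count per step ran from 16 to 26. From 75% on, no step held fewer than 26. The replicate 1 counts ran from 11 in the first step to 35 in the last, and those of replicate 2 from 10 to 31.

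Peaks in the centre scored higher and were found in both replicates more often than those in the ends. The score is the authors' own value for each peak, which the files give without a scale; it was never under 50 and piles up at exactly 3100. It is used here to describe, rank or split peaks within a list. It is not stated that the lists share a scale, so no result is drawn from the size of a score in one list against another. The limit of 3100 is still applied to each list, and ties are broken by the sum of the replicate scores. Of the central peaks, 73 of 198 (36.9%, 30.1 to 44.0) scored 3100 or more, against 50 of 218 (22.9%, 17.5 to 29.1) in the ends. The odds ratio was 1.96 (two-sided Fisher's exact test, adjusted p = 0.00568). Over all chromosomes 30.0% of the combined-list peaks reached that score. The median score was 1525 in the centre and 410 in the ends. Among supported peaks alone the odds ratio was 1.59 and no longer passed (Fisher's exact test, adjusted p = 0.0998), nor did it with the chromosome cut into 3 equal parts (1.68, adjusted p = 0.0594).

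A peak was called supported if it shared at least 1 bp with a peak in each replicate list. How the combined list was made is not stated, and it may draw on the same ChIP libraries. Support is therefore not an independent check of a peak. Support was found for 183 of 198 central peaks (92.4%, 87.8 to 95.7) and for 170 of 218 end peaks (78.0%, 71.9 to 83.3), an odds ratio of 3.44 (two-sided Fisher's exact test, adjusted p = 0.000102). Over all chromosomes 84.2% of the combined-list peaks were supported. Score and support moved together, so these results are not separate. The other autosomes had 88.2% supported in their centres against 81.2% in their ends, and 36.7% against 26.97% at a score of 3100 or more. Whether the contrast on III differed in size from theirs was not tested.

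The right and left ends did not differ detectably from each other in these respects. Support was 80.4% (73.0 to 86.6) in the right end and 73.3% (61.9 to 82.9) in the left (Fisher's exact test, adjusted p = 0.383). Scores of at least 3100 were seen in 21.7% (15.2 to 29.3) of the right-end peaks and 25.3% (16.0 to 36.7) of the left-end peaks (adjusted p = 0.688, Fisher's exact test). The median score was 397 in the right end and 458 in the left.

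Split by score, the excess of the right end over the left was present in every class. For scores from 50 to under 100 there were 7.84 peaks per Mb in the right end (95% Poisson interval 5.17 to 11.4), 2.61 in the centre and 4.36 in the left end (2.44 to 7.19). From 100 to under 500 the right end had 14.5 peaks per Mb (10.8 to 19.1), the centre 7.99 and the left end 6.97 (4.47 to 10.4). Only in this class did the intervals of the right and left end not overlap. From 500 to under 3100 the right end had 10.2 peaks per Mb (7.08 to 14.1), the centre 7.55 and the left end 4.94 (2.88 to 7.91). At 3100 or more the centre had 10.6 peaks per Mb (8.31 to 13.3), the right end 9.003 (6.12 to 12.8) and the left end 5.52 (3.32 to 8.62). The centre thus stood above the right end in the top class alone. The centres of the other autosomes together had 7.05 peaks per Mb in that class (6.19 to 8.00), under the interval of the centre of III. Single autosomes differed: the centre of I held 71 peaks of that class, against 73 on III, with whole lengths of 15.1 and 13.8 Mb. The centres of II, IV and V held 55, 52 and 64, on lengths of 15.3, 17.5 and 20.8 Mb. No test compared these counts.

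**Figure D2:**
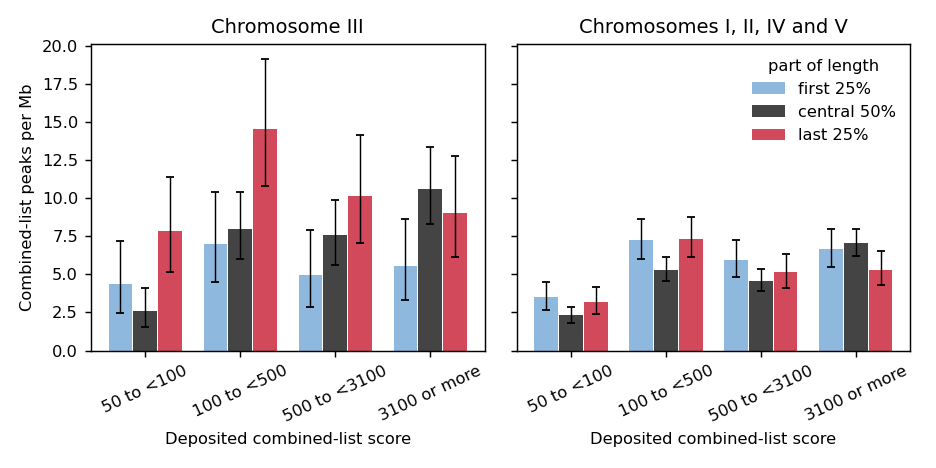
Combined-list peaks per Mb (y axis) by class of the deposited score (x axis) in the first 25%, central 50% and last 25% of the length, on chromosome III (left panel) and on chromosomes I, II, IV and V together (right panel); error bars are 95% Poisson intervals. On III the last 25% is highest in the 3 lower classes, up to 14.5 per Mb, and the centre is highest at 3100 or more with 10.6 per Mb.

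The share of close neighbours on III did not differ detectably from that on the other autosomes. Between neighbouring peaks on III, the gap from the end of one to the start of the next had a median of 18.8 kb (quartiles 6.60 and 43.2 kb), against 26.2 kb (7.77 and 61.4 kb) on the other autosomes and 22.1 kb on chromosome I alone. Of 415 gaps, 139 (33.5%, 28.96 to 38.3) were under 10 kb, against 409 of 1415 (28.9%, 26.6 to 31.3) on the other autosomes. This difference did not pass the test (odds ratio 1.24, two-sided Fisher's exact test, adjusted p = 0.154). In all chromosomes together the share was 28.9%. With the limit at 20 kb the odds ratio was 1.37 and passed (adjusted p = 0.0119, Fisher's exact test), and with 5 kb it was 0.97 (0.918). At 10 kb it also passed in each replicate's own list, with an odds ratio of 1.39 in replicate 1 (adjusted p = 0.00568, Fisher's exact test) and 1.34 in replicate 2 (0.0350). It did not pass among supported peaks only (1.23, adjusted p = 0.257, Fisher's exact test) or among the upper 50% by score (1.07, 0.918). Gaps of 100 kb or more made up 5.54% of the gaps on III and 12.5% of those on the other autosomes, a comparison made without a test. Chromosome I was close to III with 5.70%, while II had 10.3%, IV 14.7% and V 22.1%. Gap size depends on how dense the peaks are, so these gap results are not separate from the density of III.

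**Figure D3:**
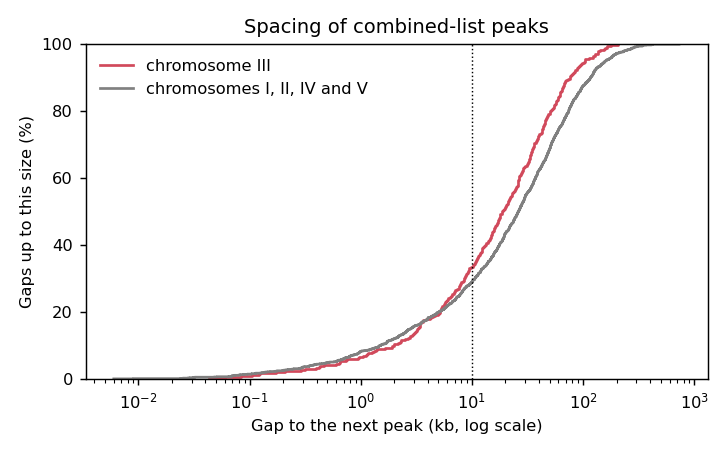
Cumulative share of gaps (y axis, %) up to a given size (x axis, kb, log scale) between neighbouring combined-list peaks on chromosome III (red) and on chromosomes I, II, IV and V (grey); the dotted line marks 10 kb. The curves cross near 5 kb, and from 10 kb on the curve of III lies over the other, with medians of 18.8 and 26.2 kb.

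Within III, the median gap was 14.6 kb in the right end, 21.2 kb in the centre and 32.9 kb in the left end. These medians are not separate from the peak density of each part. The longest gap, 208 kb, lay in the left end between a peak at chrIII:1207239-1210505, which scored 3100 and was supported, and one at chrIII:1418055-1420764. The peak on the far side scored 404.12 and was found in replicate 2 only. The second gap, 177 kb, also lay in the left end, between supported peaks at chrIII:901431-902653 (score 2697.97) and chrIII:1079485-1082030 (score 3100). The third, 165 kb, lay in the centre between supported peaks at chrIII:8444184-8448736 (478.3) and chrIII:8613790-8616171 (3100). The third gap was empty in both replicate lists as well, while the first held 1 and the second 2 peaks of replicate 1. No gap of this size was seen in the right end, where the longest was 124 kb.

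Joining peaks less than 10 kb apart gave 88 runs of 2 or more peaks, which held 227 of the 416 peaks (54.6%), and left 189 peaks alone. Runs were not counted on the other chromosomes, so whether this share is usual cannot be told here. In 6 runs there were 5 or more peaks, and the longest had 7. One run of 7 spanned 34.7 kb at chrIII:11110326-11144979, with 7 of its 7 peaks supported, 2 of them at 3100. The other run of 7 spanned 38.2 kb at chrIII:13279885-13318094, with 6 supported. Of the 6 runs, 5 lay in the right end, and the sixth, of 5 peaks at chrIII:3437184-3461521, lay across the border between the left end and the centre. Runs also depend on peak density, so their place is not separate from the higher density of the right end.

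Counted in windows of 100 kb, peak numbers ran from 0 to 10. The 138 windows, the last of them cut short by the chromosome end, held 3.01 ± 1.85 peaks (mean and SD across windows), 5 held none, and 14 held 6 or more, with 95 peaks in all. No empty window had an empty neighbour. The fullest, chrIII:13200001-13300000, held 10 peaks in the combined list and 9 in each replicate list, of which 8 were supported and 2 scored 3100 or more. The next, chrIII:11100001-11200000, held 8 peaks, all supported, with 10 in replicate 1 and 8 in replicate 2. The window chrIII:11900001-12000000 also held 8 peaks, but 5 were supported and none reached 3100. All 3 windows lay in the right end, and the median scores of their peaks were 203, 367 and 315, against a median of 662 over chromosome III. Their place restates the higher peak density of that end.

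Support on III did not differ detectably from that on the other autosomes. Both replicates carried 353 of the 416 peaks (84.9%, 81.0 to 88.2), against 1198 of 1419 (84.4%, 82.4 to 86.3) on the other autosomes (odds ratio 1.03, two-sided Fisher's exact test, adjusted p = 0.918). Of the remaining peaks on III, 28 (6.73%) had a counterpart in replicate 1 alone, 23 (5.53%) in replicate 2 alone and 12 (2.88%) in neither list. Over all chromosomes these shares were close, at 7.97%, 5.59% and 2.23%. With 50% of both lengths required to overlap, 240 peaks (57.7%) remained supported on III, against 868 (61.2%) on the other autosomes and 60.7% over all chromosomes. The odds ratio was then 0.87, which did not pass either (Fisher's exact test, adjusted p = 0.344). Replicate 1 peaks were mostly narrower than combined-list peaks, so one lying wholly inside can fail this rule by width alone. How much of the drop in support came from width was not tested. All 104 peaks scoring from 500 to under 3100 and all 123 at 3100 or more were supported. Of the 129 peaks scoring from 100 to under 500, 110 were supported (85.3%, 78.0 to 90.9), and of the 60 under 100, 16 were (26.7%, 16.1 to 39.7). The other autosomes had 85.2% (81.4 to 88.4) and 19.1% (13.8 to 25.3) in these classes, with intervals that overlap those of III.

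**Figure D4:**
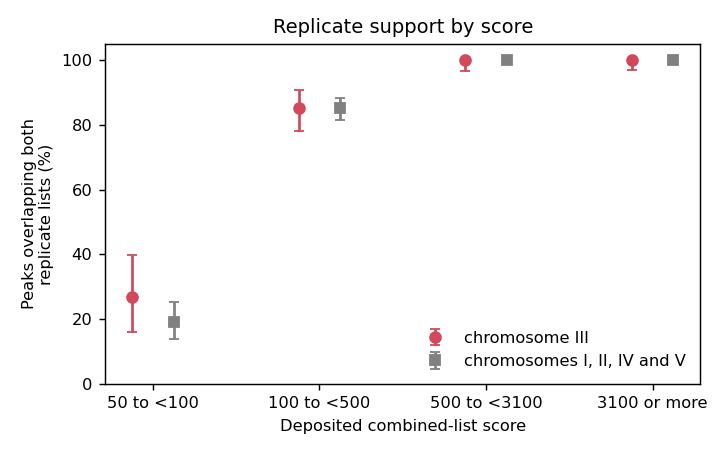
Share of combined-list peaks that overlap a peak in both replicate lists (y axis, %) by class of the deposited score (x axis), on chromosome III (red circles) and on chromosomes I, II, IV and V (grey squares); error bars are exact 95% intervals. On III the share is 26.7% under a score of 100, 85.3% from 100 to under 500 and 100% above, and the intervals overlap those of the other autosomes in each class.

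The peaks found in 1 replicate only were of different width. The 28 in replicate 1 only had a median width of 1094 bp and a median combined-list score of 68.7, up to 179.61. The 23 in replicate 2 only had a median width of 1910 bp and a median score of 107, up to 404.12. These are widths and scores in the combined list. In the replicate lists themselves, the overlapped peaks had median widths of 606 bp in replicate 1 and 1651 bp in replicate 2. All peaks of these lists on III had medians of 827 and 1520 bp. The cause of the difference in width was not tested. The replicate 2 peak with the highest score among those without a replicate 1 partner lay at chrIII:3333907-3337365 and scored 889.85. The combined-list peak over it scored 200.38. In replicate 1 the highest such score was 426.91, at chrIII:13514329-13514951. The combined-list peak over that one scored 166.01.

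The 12 peaks that overlapped neither replicate scored from 52.59 to 81.4. They lay at 4 places in the left end, 3 in the centre and 5 in the right end. From left to right they began at 1558066, 1777084, 1905294 and 2202522, then at 5102283, 6566608 and 9109169, and then at 10895426, 11433116, 11919891, 12742590 and 13586458. The one at chrIII:6566608-6574771 was 8164 bp wide with a score of 63.28. It was the widest member on chromosome III, and neither replicate list had a peak within it. The other 11 were between 1046 and 2806 bp wide. The one at chrIII:9109169-9111478 ended 60 bp before a supported peak that scored 3100.

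Widths on III ran from 659 to 8164 bp with a median of 1712 bp (quartiles 1243 and 2312 bp) in the combined list. In replicate 1 the median was 827 bp and in replicate 2 it was 1520 bp. Narrow peaks were a feature of replicate 1: 293 of its peaks were under 1000 bp, against 1 in replicate 2 and 1 in the combined list, which is the peak at the start of the chromosome. Peaks wider than 2000 bp numbered 145 (34.9%, 30.3 to 39.7) on III, against 446 (31.4%, 29.02 to 33.9) on the other autosomes, a difference that did not pass the test (odds ratio 1.17, two-sided Fisher's exact test, adjusted p = 0.342). Over all chromosomes the share was 31.3%. Nor did the share differ detectably between the centre of III (35.4%) and its ends (34.4%, Fisher's exact test, adjusted p = 0.918), or between its right end (36.4%) and its left (30.7%, adjusted p = 0.564, Fisher's exact test). Width went with score: the median was 1123 bp under a score of 100, 1326 bp from 100 to under 500, 1768 bp from 500 to under 3100 and 2316 bp at 3100 or more.

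After the unsupported region of 8164 bp, the widest members were supported and scored near or at 3100. The peak at chrIII:5585967-5592895 was 6929 bp wide, scored 3014.75, and covered 2 peaks in each replicate list. The peaks at chrIII:11285216-11291583 (6368 bp) and chrIII:5852484-5858649 (6166 bp) scored 3100 and likewise covered 2 peaks in each list. The peak at chrIII:10755843-10762155 had a width of 6313 bp and matched 1 peak in replicate 1 (4328 bp) and 1 in replicate 2 (6164 bp), all at 3100. A region of 6041 bp at chrIII:12450879-12456919 covered 3 peaks of replicate 1 and 2 of replicate 2, again at 3100. In all, 6 members covered 2 or more peaks in both replicate lists, so their width is that of more than 1 called region. Most members were simpler: 359 overlapped exactly 1 peak of replicate 1, and 369 exactly 1 of replicate 2.

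The share of peaks at 3100 or more was 123 of 416 (29.6%, 25.2 to 34.2) on III, against 447 of 1419 (31.5%, 29.1 to 34.0) on the other autosomes (odds ratio 0.91, two-sided Fisher's exact test, adjusted p = 0.564). Of these, 121 had a score of exactly 3100 and 2 a higher one. The first of the 2, at chrIII:8357454-8359024, had a width of 1571 bp and a combined-list score of 3219.64, with 2697.96 for replicate 1 and 1867.88 for replicate 2. The second, at chrIII:5719165-5721219, had a width of 2055 bp and a combined-list score of 3139.66, with 2660.9 for replicate 1 and 2255.46 for replicate 2. Neither was among the peaks at 3100 or more in a replicate list, while 108 of the 121 peaks at exactly 3100 were so in replicate 1 and 107 in replicate 2. Among those 121 peaks, ties were broken by the sum of the replicate scores, and the first 3 lay at chrIII:3920955-3922615, chrIII:4916980-4919430 and chrIII:6606476-6609029. Each of these 3 had 1 replicate score above 3100 (3184.83, 3172.06 and 3165.42), which set its place. All 5 lay in the centre, a set chosen by a score above 3100 in some list. Whether such a score marks a stronger peak than one of exactly 3100 is not known. The 5 are therefore not shown to be the strongest peaks.

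Between the replicate lists, 380 of 468 replicate 1 peaks on III (81.2%, 77.4 to 84.6) overlapped a replicate 2 peak, and 360 of 401 replicate 2 peaks (89.8%, 86.4 to 92.6) overlapped a replicate 1 peak. The 88 replicate 1 peaks without a partner had a median score of 77.2, against 841 for those with one. The 41 of replicate 2 had 87.0, against 758. Mutual best overlaps gave 360 matched pairs, whose centres lay a median of 58.5 bp apart. Replicate 2 was the wider in 353 of them, with a median ratio of 1.59, and in 329 pairs the replicate 1 peak was contained in the other.

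Across the pairs, the ranks of the deposited scores had a Spearman's rho of 0.94, and of 0.85 in the 242 pairs with both scores under 3100. Across the other autosomes these were 0.93 and 0.84. They describe peaks of the same libraries, which are not independent, and carry no p-value. Both scores reached 3100 in 102 pairs, replicate 1 alone in 8 and replicate 2 alone in 8. On the other autosomes replicate 1 alone reached it in 53 pairs and replicate 2 alone in 14, beside 303 with both.

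**Figure D5:**
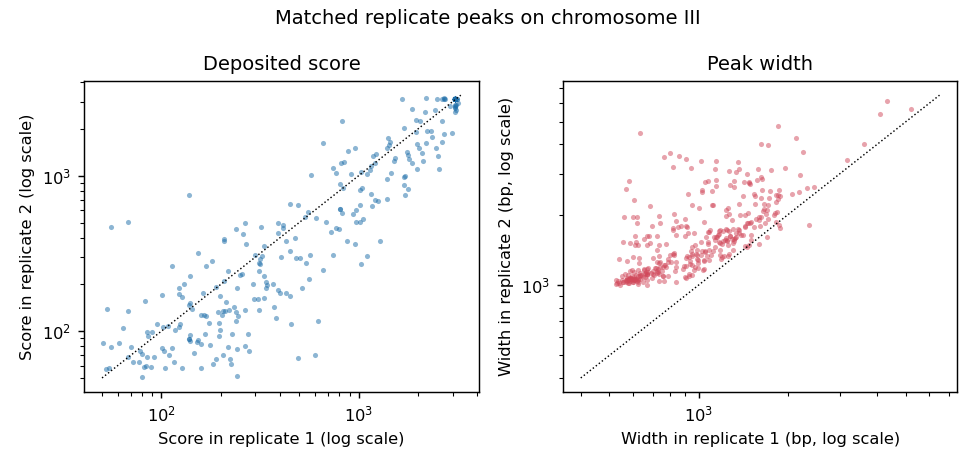
The 360 matched pairs of replicate peaks on chromosome III, with the replicate 1 value on the x axis and the replicate 2 value on the y axis, for the deposited score (left) and the width in bp (right), all on log scales; dotted lines mark equal values. Scores that are high in one list are mostly high in the other and pile up at 3100, while widths lie above the dotted line in 353 pairs. For scores this line is a visual guide only, as a common scale is not stated.

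The first member began at the first base of the chromosome. Its start was missing in the file and was taken as position 1; it ended at 659, had a combined-list score of 90.91 and a replicate 2 score of 257.9, and was not met in replicate 1. The last member, at chrIII:13767546-13772479, was 4934 bp wide, scored 3100, and covered 2 peaks in each replicate list. Its end is the highest peak end on III and was used as the length of the chromosome. The peak at chrIII:10504584-10507538 is the one whose length changed when the authors carried the coordinates to WS210: a comment line gives it as 2954 bp and the deposited row as 2955 bp. It scored 2865.53, and it was 1 peak in replicate 2 (1606.08) and 2 in replicate 1, the higher at 1974.49.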

How the data were processed

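Peak lists of 2 LIN-37 ChIP libraries and a combined list were analysed. Per the labels' protocols, embryos were incubated for 3.5 hours, fixed in 1% formaldehyde for 10 minutes, and libraries were amplified for 18 cycles and selected at 250 to 350 bp. Coordinates are those of WormBase WS210, per the file headers, and had been carried over from another build; feature names begin with MACS while the source column says MA2C. The score of each peak is as deposited by the authors, with no scale stated. The sources used here do not name the aligner, the caller version, the control or the way the combined list was made. Without read depth, intervals cover counting only.

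From these, overlaps, gaps and positions (by peak centre, as a share of the highest peak end in the 3 lists) were computed with Python 3.11.15, pandas 2.3.3, NumPy 2.4.6 and SciPy 1.17.1. Shares carry exact Clopper-Pearson 95% intervals. Tests were two-sided exact binomial or Fisher's exact tests, with Benjamini-Hochberg values over 18 tests and a threshold of 0.05. Each peak enters as an independent unit, so clustering makes p-values too small. The labels do not say that replicates came from separate cultures. Functions were tested on simulated data. The members, tests and the rule for named regions (highest scores, widest, first and last, longest gaps, fullest windows, peaks in neither replicate, peaks covering several, and the one changed between builds) were chosen with earlier results of these data known. The runs of neighbouring peaks and the classes of score by position were added later.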

Additional observations from a re-analysis of the deposited data

How the results depend on the processing

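Over 18 results, 109 alternatives were computed, of which 86 left both sign and call as they were. Peaks without a start left out, added after seeing the data, changed no call. Upper 50% by score: density of III over II 1.24 (1.31 in the report; exact binomial, adjusted p = 0.0844), central share 56.8%, odds ratio of width over 2000 bp in centre against ends 0.68. Supported peaks only: central share 51.8%, score of 3100 or more in centre against ends 1.59 (no longer passing), width in centre against ends 0.96. Chromosome in 3 equal parts: score in centre against ends 1.68 (no longer passing), and width in centre against ends 0.95. An overlap of 50% of both lengths turned support on III against other autosomes to 0.87 and in right against left end to 0.75. A gap limit of 5 kb gave 0.97 and one of 20 kb 1.37, past the threshold. A width limit of 3000 bp gave 0.68 for centre against ends and 0.80 for right against left end. With 1 replicate left out, support on III against other autosomes ranged from 0.89 to 1.05, score of 3100 or more from 1.04 to 1.24, width from 0.96 to 1.20, gaps from 1.34 to 1.39 (past the threshold in both lists), width in centre against ends from 0.42 to 0.66 and in right against left end from 0.49 to 1.23. The cause of these changes was not tested. The results that reversed did not pass the test in the report. Support could not be compared among the upper 50% by score, where every peak was supported. No paired analysis was possible because no comparison set ChIP against input, the pair of groups with common replicate numbers. Which peaks depth kept from being called is unknown, as the files give none.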
